A study of Mus musculus with 12 samples.

Results

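The genes described here are 35 named genes of glucose metabolism and of the response to low oxygen. Of these, 23 are genes of glucose uptake, glycolysis and lactate handling, called glycolysis genes below. The other 12 are genes of oxygen sensing and targets of the hypoxia-inducible factor, called hypoxia genes. All 35 were taken by name from a list, and where a gene had several probe sets the brightest on average stood for it. Of the 35, 33 had a probe set that the annotation assigns to a single gene; Gpi1 and Eno1 did not and were not analysed here. Of those 33, 29 were tested, among 7723 genes in all: 18 of the 23 glycolysis genes and 11 of the 12 hypoxia genes. A gene was tested if its signal lay above the median of the array on at least 2 of the 12 arrays, and 27 of the 29 lay above it on all 12. The exceptions were Pfkp, on 11 arrays, and P4ha2, on 10. Aldoc, Pgam2 and Adm lay above the median on 0 arrays and Slc16a3 on 1 array, so these 4 were left untested.

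The arrays measured RNA of embryonic muscle progenitors of ICR mice carrying Myf5Cre and RosaYFP, in which cells that have expressed the myogenic factor Myf5, and their descendants, bear a yellow fluorescent protein. Head and trunk tissue of embryos at E9.5, E10.5 and E11.5 was dispersed, and the fluorescent cells were sorted. This gave 6 groups of 2 arrays, all of the same genotype and strain and without any treatment. The Cre marks a history of Myf5 expression and not a present muscle identity, and no label tells whether the paired arrays of a group are of different embryos, litters or pools. The p-values therefore measure only the spread between these samples, which may be technical. The question put to these genes is how their expression differs between head and trunk progenitors and across the 3 stages.

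Glycolysis turns glucose into pyruvate, and cells with little oxygen, or with a high demand for carbon, pass much of that pyruvate to lactate. The hypoxia-inducible factor is a transcription factor whose alpha subunit is marked for destruction by oxygen-dependent prolyl hydroxylases. When oxygen is scarce the subunit persists and activates glucose transporters, most glycolytic enzymes, lactate dehydrogenase A and genes such as Vegfa and Bnip3. Early embryos are known for a high rate of glycolysis, and differentiating muscle for a switch towards muscle-specific isozymes.

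The arrays were alike in scale, with medians between 108.6 and 110.4 units of signal intensity, and the replicates of a group correlated at r = 0.948 to 0.966 over all probe sets (log2). Myf5 lay above the median on all 12 arrays, at log2 9.04 to 11.16, and Myod1, a later myogenic factor, on 8, the exceptions being the 4 arrays of E9.5. Tbx1, a regulator of head mesoderm, read 9.20 to 10.06 on the head arrays and 6.05 to 7.70 on the trunk arrays, and Pax3, of the trunk muscle precursors, 7.23 to 8.55 in head and 9.0 to 10.13 in trunk. Of the 25 listed genes of muscle differentiation, Tnnt3 and Ckm lay below the median on every array. Replicate 1 of E10.5 had a low signal of Xist, the X-inactivation transcript, in both tissues (7.35 in head and 6.37 in trunk, against 11.89 to 13.10 on the other 10 arrays). These 2 arrays are left out as an alternative below.

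From E9.5 to E11.5 most glycolysis genes fell, while most hypoxia genes did not pass the test. Averaged over head and trunk, 10 of the 18 glycolysis genes were lower at E11.5 and 2 were higher, with a median change of -0.50 (log2), where a change of -1 is a fall by a factor of 2. Among the 11 hypoxia genes 2 were lower and 1 was higher, with a median of -0.09. Over all 7723 genes the median was -0.01, and 6.25% were lower and 9.92% higher. Lower and higher here mean an adjusted p under 0.05 in limma, with Benjamini-Hochberg adjustment over all genes tested. In total 15 of the 29 genes passed in this comparison, against 16.2% of all genes. In these bulk samples, fewer cells of a type and less RNA per cell cannot be told apart.

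Each tissue was also read on its own. In head the median change over the 2 days was -0.30 for the glycolysis genes, and in trunk it was -0.68. For the hypoxia genes the trunk median was -0.01, and in head 6 of 11 changes were negative. Set by array, the median of the 18 glycolysis genes, each centred on its own mean, was 0.35 to 0.47 on the trunk arrays of E9.5, 0.16 to 0.17 on the head arrays of E9.5 and -0.33 to -0.12 on the 4 arrays of E11.5. The arrays of the first stage thus lay above those of the last without overlap. For the hypoxia genes the same value was -0.09 to 0.12 at E9.5 and -0.13 to 0.10 at E11.5, and the stages overlapped.

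**Figure D1:**
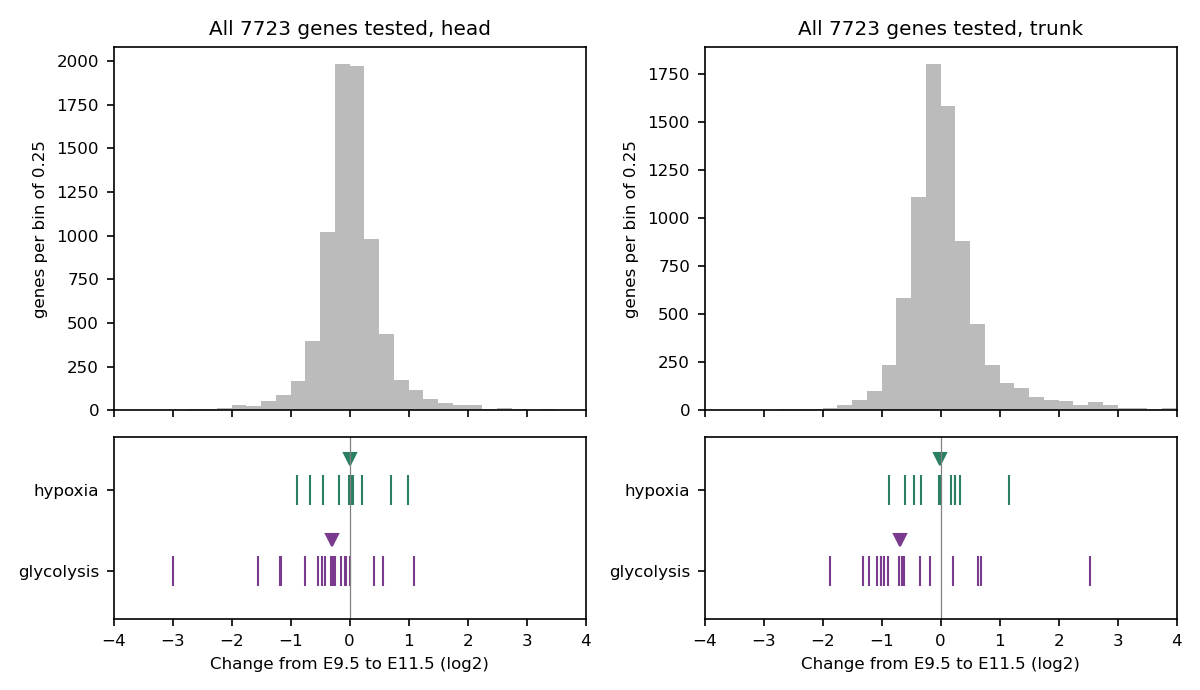
Distribution of changes between E9.5 and E11.5 (log2) over all 7723 genes tested, as a histogram in bins of 0.25, for head and trunk, with each glycolysis and hypoxia gene as a tick below it and the median of each set as a triangle. The glycolysis median lies at -0.30 in head and -0.68 in trunk, and the trunk hypoxia median at -0.01, near that of all genes.

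Many of these genes carry the core of the hypoxia response element near their start. The core was searched for as ACGTG or GCGTG on both strands of the 250 bases before each annotated start (RefSeq, GRCm38.p6); CACGTG reads the same on both strands and counts once on each. All but Slc2a3 and Ndrg1 of the 35 genes had at least 1 such window, and 30 of these 33 genes (90.9%) held a core in at least 1 window, against 41.5% of 27025 genes. Counted by window, the share was 76.0% of 50 windows of these genes and 38.6% of all 32851 windows. The median GC content was 60.2% in the former and 52.4% in the latter, and its part in the difference was not tested. Grouped by how the genes changed between E9.5 and E11.5 (average of tissues), a core was present in 11 of 11 genes that fell, in 3 of 3 that rose and in 12 of 13 that did not pass the test. A match is a description of letters and not a site shown to be bound. The windows of 3 genes that fell and 2 that rose are printed 5′ to 3′ on the strand of the gene, with the cores in capitals (CACGT and CACGC are the cores of the opposite strand).
Slc2a1, chr4:119108495-119108744, plus strand: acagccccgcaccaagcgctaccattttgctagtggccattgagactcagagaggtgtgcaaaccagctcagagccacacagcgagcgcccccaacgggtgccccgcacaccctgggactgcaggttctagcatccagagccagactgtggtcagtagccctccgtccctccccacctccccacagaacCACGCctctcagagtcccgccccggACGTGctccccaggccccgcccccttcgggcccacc
Ldha, chr7:46845554-46845803, plus strand: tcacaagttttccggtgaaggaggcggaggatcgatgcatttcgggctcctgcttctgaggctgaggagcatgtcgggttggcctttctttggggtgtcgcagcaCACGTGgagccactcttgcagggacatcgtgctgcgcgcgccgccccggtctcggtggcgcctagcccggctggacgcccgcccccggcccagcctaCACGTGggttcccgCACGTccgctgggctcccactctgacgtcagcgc
Bnip3, chr7:138909507-138909756, minus strand: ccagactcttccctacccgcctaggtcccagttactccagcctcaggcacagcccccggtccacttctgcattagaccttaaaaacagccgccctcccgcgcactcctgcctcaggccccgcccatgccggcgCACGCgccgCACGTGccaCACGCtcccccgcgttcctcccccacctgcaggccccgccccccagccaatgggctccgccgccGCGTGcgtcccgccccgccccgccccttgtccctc
Ldhb, chr6:142507958-142508207, minus strand: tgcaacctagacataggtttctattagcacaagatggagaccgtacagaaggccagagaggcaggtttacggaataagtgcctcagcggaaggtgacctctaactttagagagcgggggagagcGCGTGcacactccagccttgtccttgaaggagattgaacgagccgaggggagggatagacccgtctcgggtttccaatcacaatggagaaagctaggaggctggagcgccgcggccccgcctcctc
Egln3, chr12:54203875-54204124, minus strand: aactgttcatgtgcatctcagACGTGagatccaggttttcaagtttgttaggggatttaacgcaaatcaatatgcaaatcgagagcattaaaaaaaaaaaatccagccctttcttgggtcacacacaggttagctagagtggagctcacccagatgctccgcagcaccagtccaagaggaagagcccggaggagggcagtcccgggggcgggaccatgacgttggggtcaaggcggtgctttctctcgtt
Ldha, which fell, held 5 cores, 4 of them in a pair of CACGTG palindromes, and Bnip3, which also fell, held 5, while Slc2a1 held 2. Ldhb and Egln3, which rose, held 1 core each. Hk1, which rose too, held 3 in its first window and 0 in its other window, which lies at the 5′ end of the gene. First means of lowest coordinate on the chromosome, so for genes on the minus strand it can belong to an internal start. The first windows of the 11 genes that fell held from 0 cores (Pkm) to 5, with 1 each for Pfkl, Aldoa and Pdk1, so the printed windows do not stand for the fallen or risen genes as sets.

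**Figure D2:**
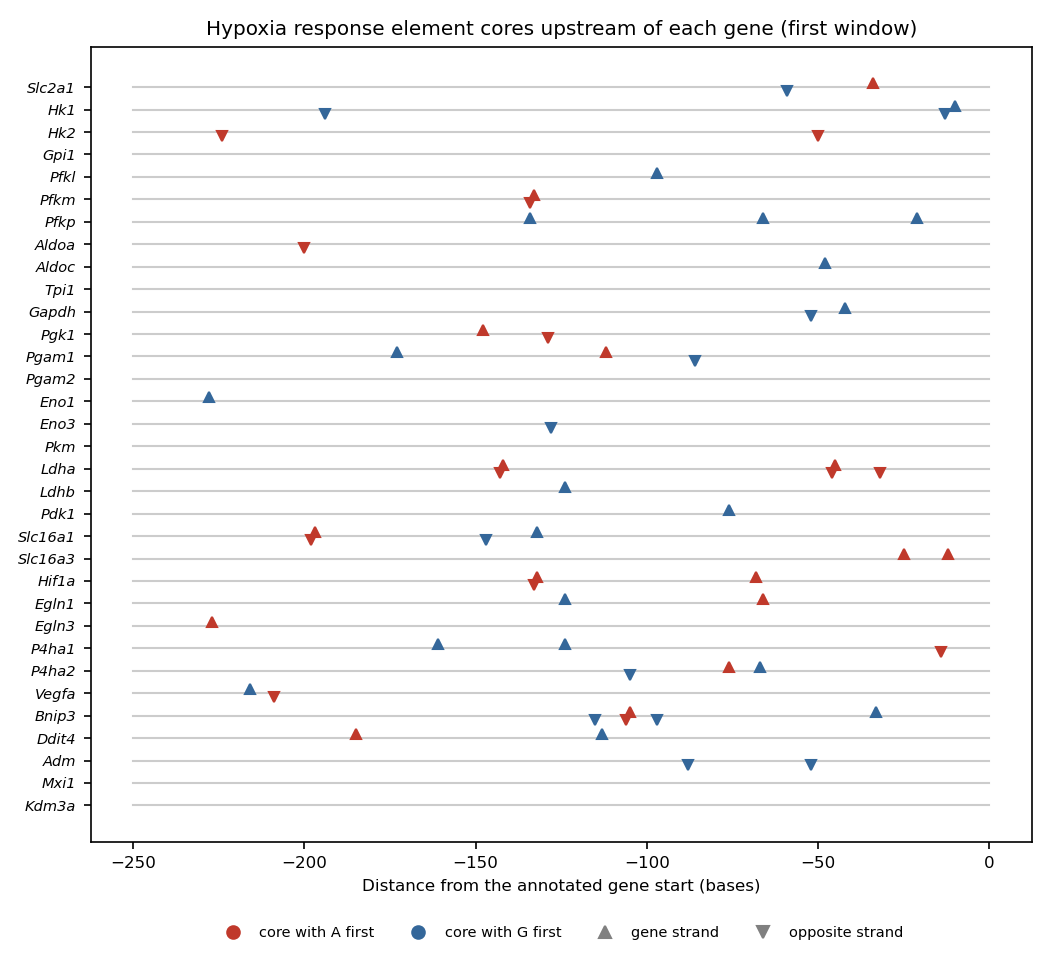
Position of each hypoxia response element core in the first window (lowest chromosome coordinate) of the 33 genes with a window, as distance in bases from the annotated start. Colour gives the core (A or G first) and the triangle's direction the strand. The cores lie at many distances, and the windows hold from 0 cores (such as Pkm) to 5 (Ldha and Bnip3), with 4 for Slc16a1 and 3 for Hk1.

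Both glucose transporters fell. Slc2a3, the high-affinity transporter GLUT3, had a log2 signal in head of 12.54 and 12.03 at E9.5, 9.48 and 9.78 at E10.5 and 9.33 and 9.27 at E11.5. In trunk it read 11.69 and 11.43, then 9.81 and 10.30, then 10.10 and 9.28. All 4 arrays of E9.5 lay above the other 8. Between E9.5 and E11.5 it changed by -2.99 ± 0.28 (SE) in head, a 7.92-fold fall (adjusted p = 0.000116), and -1.87 ± 0.28 in trunk, 3.66-fold (adjusted p = 0.000982). Most of it had happened by E10.5, with -2.65 ± 0.28 in head (adjusted p = 0.00226) and -1.51 ± 0.28 in trunk (adjusted p = 0.00682). In the average of the tissues its 5.38-fold fall was the furthest of the 29 genes (-2.43 ± 0.19, adjusted p = 1.09e-05). The probe set used for Slc2a3 is of a kind marked as able to bind other transcripts. Without probe sets of the suffixes _s, _x and _a the gene could not be tested.

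Slc2a1, the widely expressed transporter GLUT1, fell as well, and its timing read differently in the 2 tissues. In head its signal was 11.52 and 11.55 at E9.5, 11.67 and 11.44 at E10.5 and 10.69 and 10.07 at E11.5. In trunk it was 11.90 and 11.27, then 10.30 and 10.34, then 10.34 and 10.39. At E10.5 the head arrays thus still stood at the level of E9.5, while the trunk arrays had reached that of E11.5. Head exceeded trunk at E10.5 by 1.24 ± 0.23, or 2.36-fold (adjusted p = 0.0119), against -0.05 ± 0.23 at E9.5 and 0.01 ± 0.23 at E11.5, which did not pass. In trunk the fall came between E9.5 and E10.5 (-1.26 ± 0.23, adjusted p = 0.00614), and in head between E10.5 and E11.5 (-1.18 ± 0.23, adjusted p = 0.0366). Head and trunk differed in the change by 1.29 ± 0.32 (head minus trunk) over the first day and -1.22 ± 0.32 over the second, with adjusted p of 0.144 and 0.407, so the difference in timing itself did not pass the test. Over the whole span the falls were alike, 2.23-fold in head and 2.33-fold in trunk, with a difference of 0.06 and a 95% interval of -0.63 to 0.76. The E10.5 differences rest on few arrays: without replicate 1 of E10.5 in both tissues head against trunk had an adjusted p of 0.399, and it was also lost without head replicate 1 or either trunk replicate of E10.5. The difference without the 2 arrays was 1.10, close to that with them. On the probe set of Slc2a1 without a suffix the E10.5 difference was 0.94 (adjusted p = 0.0796) and the change in head over the whole span -0.98 (adjusted p = 0.0636); neither passed, while the fall in the average of the tissues was -1.19 on both probe sets.

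**Figure D3:**
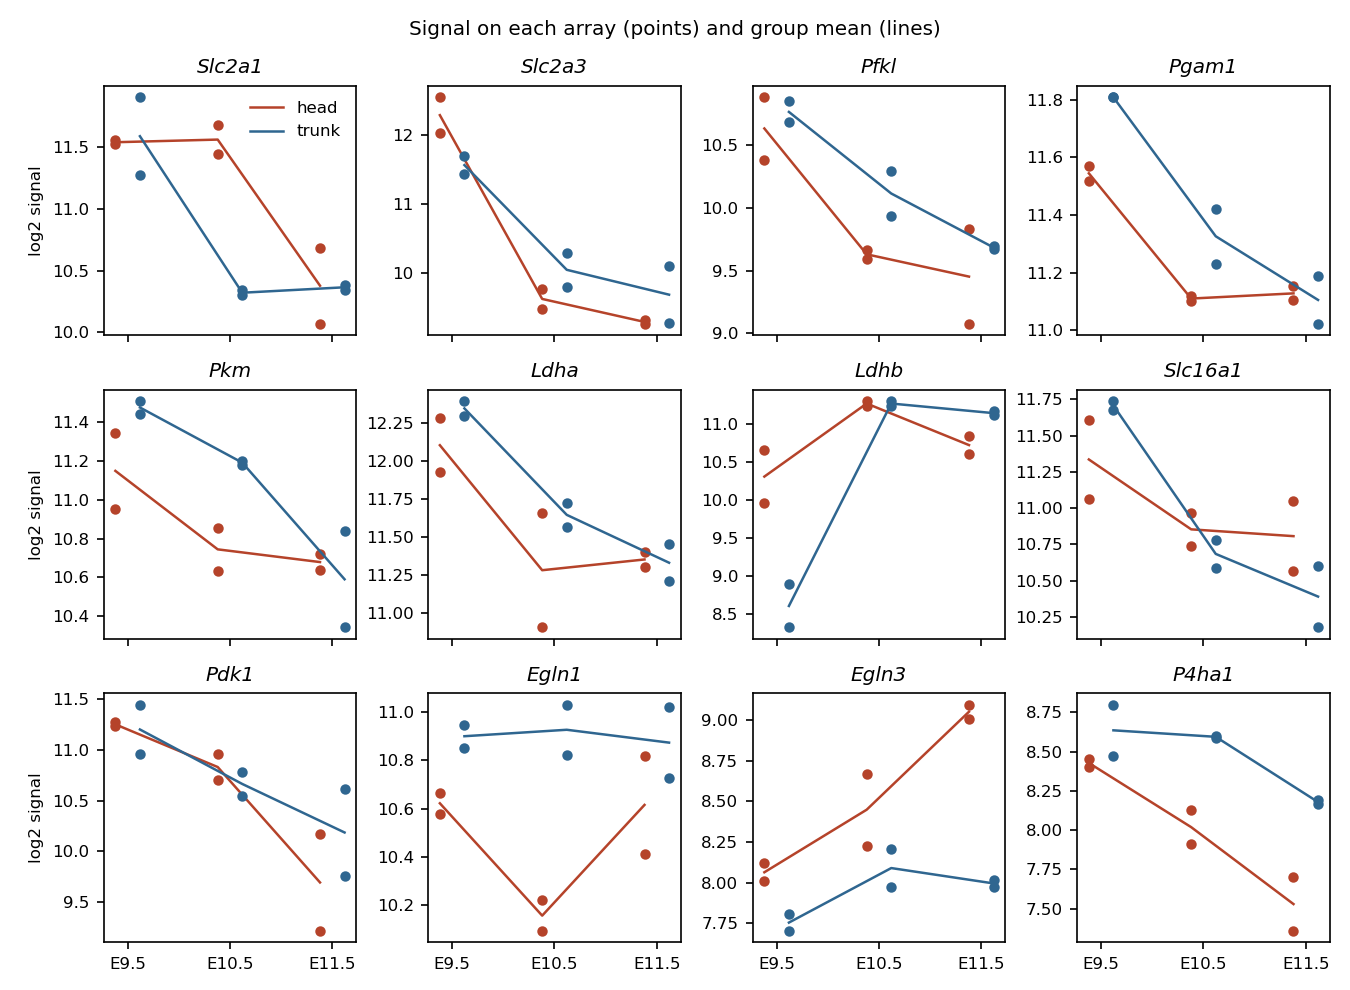
Log2 signal of 12 genes on each of the 12 arrays (points; head red, trunk blue, 2 arrays a group) by stage, with lines through the group means. Slc2a3, Pfkl, Pgam1, Pkm and Ldha lie lower at E11.5 than at E9.5 in both tissues, Slc2a1 is still high in head at E10.5, Ldhb starts low in trunk, and Egln3 rises in head.

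The first steps of glycolysis changed isozyme by isozyme. Hexokinases trap glucose in the cell. Hk1, the constitutive form, read 8.61 and 7.52 in head and 8.17 and 8.36 in trunk at E9.5, and 9.06 and 9.28 in head and 8.92 and 8.97 in trunk at E11.5. It rose by 0.89 ± 0.21 in the average of the tissues (1.85-fold, adjusted p = 0.0132), and its 4 early arrays all lay below its 4 late ones. Hk2, the insulin-responsive form of muscle and fat, read 10.70 and 10.38 in head and 10.90 and 10.81 in trunk at E9.5. At E11.5 it read 10.57 and 10.35 in head and 9.90 and 9.90 in trunk. The trunk arrays fell and the head arrays overlapped. Its change was -0.96 ± 0.21 in trunk (adjusted p = 0.0115) and -0.08 ± 0.21 in head (adjusted p = 0.899), and the difference between the tissues, 0.88 ± 0.30, did not pass the test (adjusted p = 0.223).

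Phosphofructokinase commits sugar to glycolysis, and its liver-type subunit Pfkl was the form that fell. Its signal in head was 10.88 and 10.39 at E9.5, 9.67 and 9.60 at E10.5 and 9.08 and 9.83 at E11.5. In trunk it was 10.68 and 10.85, then 9.94 and 10.29, then 9.67 and 9.70. The stages E9.5 and E11.5 did not overlap in either tissue. The fall was 2.27-fold in head (-1.18 ± 0.25, adjusted p = 0.0174) and 2.12-fold in trunk (-1.08 ± 0.25, adjusted p = 0.0142); the head call was lost with the mean of its probe sets. The muscle form Pfkm changed by 0.08 ± 0.14 in the average of the tissues (adjusted p = 0.766), and the platelet form Pfkp by 0.60 ± 0.24 (adjusted p = 0.121). Pfkl joined Slc2a1 and Slc2a3 as the 3 of the 29 genes that were lower at E11.5 by each tissue's own test.

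Of the enzymes further down the pathway, Aldoa, Pgam1 and Pkm fell. Aldoa, aldolase A, read 11.19 and 11.45 in head and 11.67 and 11.34 in trunk at E9.5, and 11.10 and 10.97 in head and 10.80 and 10.97 in trunk at E11.5, a change of -0.46 ± 0.13 (adjusted p = 0.0268). Pgam1, phosphoglycerate mutase of most tissues, was among the tightest genes, at 11.52 and 11.57 in head and 11.81 and 11.81 in trunk at E9.5. By E11.5 it was at 11.15 and 11.10 in head and 11.19 and 11.02 in trunk, a 1.47-fold fall (-0.56 ± 0.09, adjusted p = 0.00122). Both genes had early arrays that all lay above the late ones. Pkm, pyruvate kinase of muscle and of proliferating cells, read 11.34 and 10.96 in head and 11.44 and 11.51 in trunk at E9.5. It then read 10.64 and 10.72 in head and 10.84 and 10.34 in trunk at E11.5, a 1.60-fold fall (-0.68 ± 0.13, adjusted p = 0.00418). Splice forms of Pkm were not separated here.

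The remaining enzymes of this stretch did not pass the test. The changes were -0.40 ± 0.14 for Tpi1, triose phosphate isomerase (adjusted p = 0.0777), -0.30 ± 0.10 for Gapdh (adjusted p = 0.0723), -0.48 ± 0.17 for the muscle enolase Eno3 (adjusted p = 0.0691) and -0.09 ± 0.07 for Pgk1, phosphoglycerate kinase (adjusted p = 0.449). For Pgk1 the answer depended on the probe set: its other 2 probe sets changed by -0.50 and -0.73, and with the mean of its probe sets the gene passed at -0.44 (adjusted p = 0.00186). Tpi1 passed too with the mean of its probe sets, at -0.54 (adjusted p = 0.00432). The probe sets used for Aldoa, Tpi1 and Pgk1 are of the kind marked as able to bind other transcripts, so signal of near-identical copies cannot be told apart from theirs. The same holds for the probe sets used for Slc2a3 and Ndrg1. Gapdh was represented by its 3′ control probe set. Over the 12 arrays this read 5.30 to 5.98 (log2) above the 5′ control probe set of Gapdh. For the control gene Actb the same difference was at least 4.86 on every array. The 5′ and middle probe sets of Gapdh changed by -0.295 and -0.41. The part of this 3′ excess in the signals, and in probe sets of a gene that disagree, was not tested. Pgam2 and Aldoc, the isozymes of Pgam1 and Aldoa, stayed below the median of the array throughout, at 2.87 to 6.05 and 5.34 to 6.48.

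At the end of the pathway the lactate dehydrogenases moved in opposite directions. Ldha, whose subunit favours lactate production, read 11.93 and 12.28 in head at E9.5, 10.90 and 11.66 at E10.5 and 11.31 and 11.40 at E11.5. In trunk it read 12.40 and 12.30, then 11.57 and 11.72, then 11.45 and 11.21. Every array of E9.5 lay above every later one. Its fall in the average of the tissues was 1.85-fold (-0.89 ± 0.15, adjusted p = 0.00175), with -1.02 ± 0.21 in trunk (adjusted p = 0.00802) and -0.75 ± 0.21 in head, which did not pass (adjusted p = 0.0659).

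Ldhb, whose subunit favours the use of lactate, rose, and it was the 1 gene of the 29 whose change differed between the tissues. In trunk it stood at 8.33 and 8.89 at E9.5, 11.24 and 11.30 at E10.5 and 11.12 and 11.17 at E11.5. In head it stood at 9.96 and 10.66, then 11.30 and 11.24, then 10.84 and 10.61. The trunk arrays of E9.5 lay below all others, and at E11.5 both head arrays lay below both trunk arrays. The rise to E11.5 was 5.79-fold in trunk (2.53 ± 0.23, adjusted p = 4.93e-05), of which 2.66 ± 0.23 had been gained by E10.5 (adjusted p = 8.49e-05). In head the change was 0.41 ± 0.23 (adjusted p = 0.405). Head exceeded trunk at E9.5 by 1.70 ± 0.23, or 3.25-fold (adjusted p = 0.0011), and at E10.5 by 0.00 with a 95% interval of -0.51 to 0.51. At E11.5 the difference was -0.42, with an interval of -0.93 to 0.09 (adjusted p = 0.561). The change in head minus that in trunk, -2.12 ± 0.33, passed at an adjusted p of 0.00813, in a comparison in which 1.48% of all genes did. For the first day alone, a comparison added after the data were seen, it was -1.70 ± 0.33 (adjusted p = 0.0602). All 4 probe sets of Ldhb rose in the average of the tissues, by 1.12 to 1.47. The 3 Ldhb calls of the whole span (trunk, average of tissues and difference between them) held without any 1 array. Markers of neurons and connective tissue also rose mainly in trunk over this span, as given below, and their part in the Ldhb result and in the falls of trunk was not tested.

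Pyruvate dehydrogenase kinase 1 (Pdk1), which keeps pyruvate out of the mitochondrial cycle, fell from 11.27 and 11.23 in head and 11.44 and 10.95 in trunk at E9.5. It reached 10.17 and 9.22 in head and 10.62 and 9.75 in trunk at E11.5. The late arrays were all lower than the early ones but scattered. The fall was 2.44-fold in the average (-1.28 ± 0.23, adjusted p = 0.00233), with -1.55 ± 0.32 in head (adjusted p = 0.0157) and -1.01 ± 0.32 in trunk (adjusted p = 0.0579). Slc16a1, the lactate carrier MCT1, read 11.61 and 11.06 in head and 11.74 and 11.68 in trunk at E9.5. At E11.5 it read 10.56 and 11.05 in head and 10.60 and 10.18 in trunk, with the head arrays close to touching. It fell by 1.32 ± 0.22 in trunk on the log2 scale (2.49-fold, adjusted p = 0.00239) and changed by -0.53 ± 0.22 in head (adjusted p = 0.232). The difference between the tissues, 0.79 ± 0.32, did not pass the test (adjusted p = 0.312). The other lactate carrier, Slc16a3, was above the array median on 1 trunk array of E9.5 (7.36) and lay between 3.49 and 6.62 on the other 11.

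**Figure D4:**
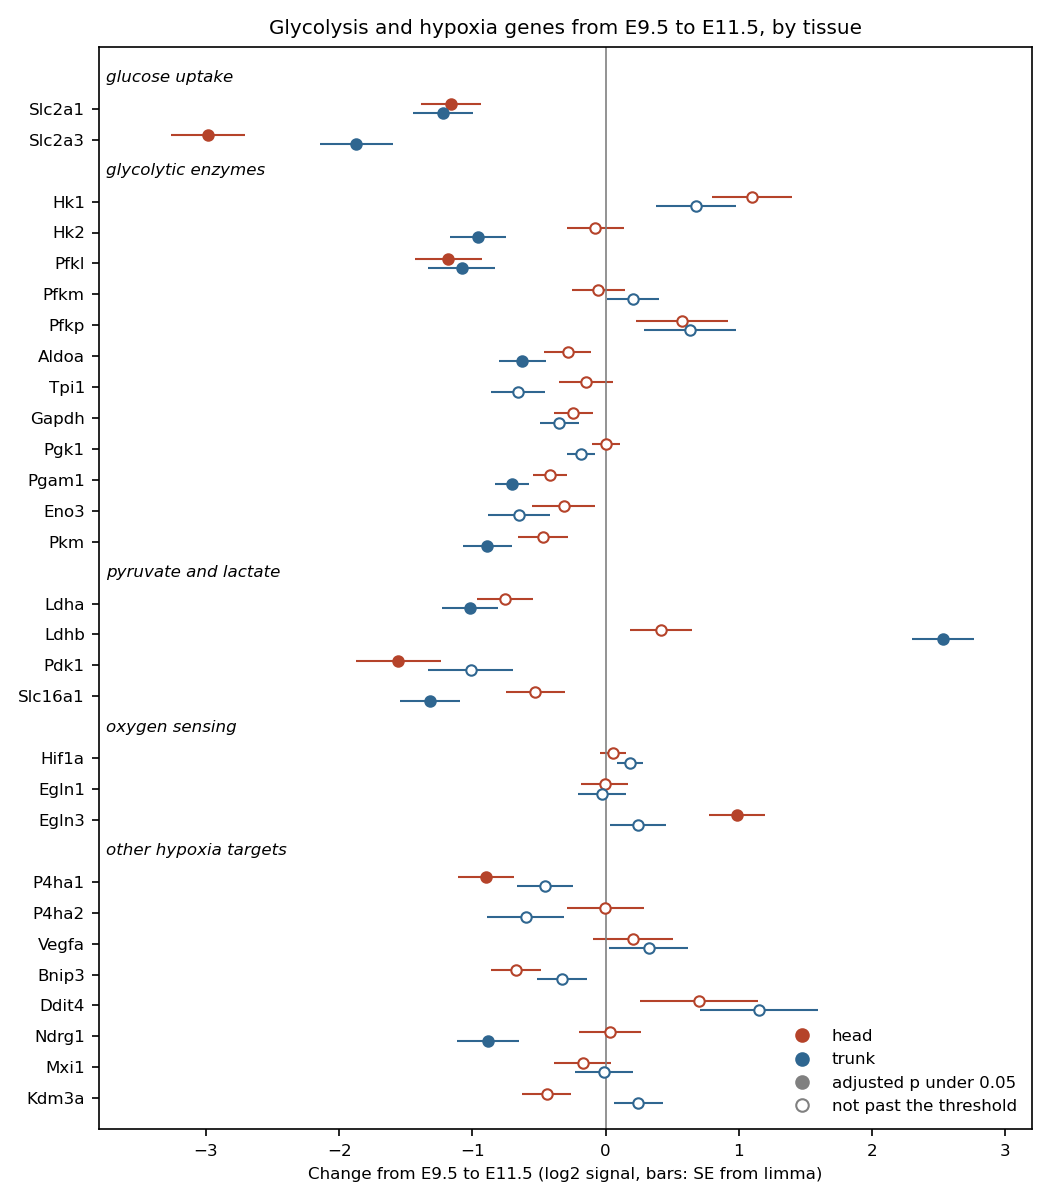
Difference between E11.5 and E9.5 (log2 signal, bars are the SE from limma) for the 29 genes tested, in head (red) and trunk (blue), filled where the adjusted p is under 0.05. Slc2a1, Slc2a3 and Pfkl are filled below 0 in both tissues, Ldhb stands at 2.53 in trunk and 0.41 in head, and the hypoxia genes lie on both sides of 0.

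The genes of oxygen sensing showed another pattern. Hif1a, the regulated subunit of the hypoxia-inducible factor, was among the steadiest genes, at 12.41 to 12.69 over the 12 arrays, with a change of 0.12 ± 0.07 (adjusted p = 0.286). Of its other probe sets, 1 above the array median on all 12 arrays changed by 0.11. Another, above it on 5 arrays, changed by -0.41 and had a head minus trunk of -0.99, and the last, above it on 0 arrays, changed by -0.03. The protein of Hif1a, on which its regulation by oxygen acts, was not measured. Egln1, the main prolyl hydroxylase (PHD2), changed by -0.02 ± 0.13 (adjusted p = 0.949), while its second probe set, above the array median on 9 arrays, changed by -0.66. Egln3, the hydroxylase PHD3 and itself a target of the factor, read 8.12 and 8.01 in head at E9.5, 8.23 and 8.67 at E10.5 and 9.09 and 9.01 at E11.5. In trunk it read 7.81 and 7.70, then 7.97 and 8.21, then 8.02 and 7.97. The rise was 1.98-fold in head (0.99 ± 0.21, adjusted p = 0.0174) and 0.24 ± 0.21 on the log2 scale in trunk (adjusted p = 0.518). The difference between those changes, 0.75 ± 0.30, did not pass (adjusted p = 0.311). In the average of the tissues Egln3 rose by 0.61 ± 0.15 (adjusted p = 0.014).

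Of the other hypoxia genes, 2 of 8 fell. P4ha1, a collagen prolyl hydroxylase subunit, read 8.46 and 8.40 in head and 8.47 and 8.80 in trunk at E9.5, and 7.36 and 7.70 in head and 8.19 and 8.17 in trunk at E11.5. All early arrays lay above all late ones, and the change was -0.68 ± 0.15 (adjusted p = 0.00816), with -0.90 ± 0.21 in head (adjusted p = 0.0285). Bnip3, a mitophagy receptor, read 10.55 and 10.96 in head and 10.84 and 10.81 in trunk at E9.5. It read 10.22 and 9.94 in head and 10.48 and 10.51 in trunk at E11.5, a change of -0.50 ± 0.13 (adjusted p = 0.0241). Both falls were modest, 1.60-fold and 1.41-fold. Ndrg1, a stress-induced gene, fell in trunk (-0.88 ± 0.23, adjusted p = 0.0264), from 9.24 and 8.98 to 8.21 and 8.24, but not in the average of the tissues (-0.42 ± 0.17, adjusted p = 0.107). Ddit4, an inhibitor of mTOR signalling, changed by 0.93 ± 0.31 (adjusted p = 0.0654), with replicates that differed widely. Vegfa, the endothelial growth factor, changed by 0.26 ± 0.21 (adjusted p = 0.446), and P4ha2 by -0.30 ± 0.21 (adjusted p = 0.37). Mxi1, a Myc antagonist, and Kdm3a, a histone demethylase, changed by -0.09 ± 0.15 and -0.10 ± 0.13 (adjusted p = 0.735 and 0.661). Adm, adrenomedullin, stayed below the array median, at 1.61 to 4.83.

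By tissue, 5 of the 29 genes were lower and 1 was higher at E11.5 than at E9.5 in head, where 4.78% of all genes passed (2.03% lower, 2.75% higher). In trunk 10 were lower and 1 was higher, against 13.4% of all genes (4.71% lower, 8.73% higher). Of the 10, 9 were glycolysis genes, and Ndrg1 was the tenth. In trunk 6 genes passed between E9.5 and E10.5 (Slc2a1, Slc2a3, Hk2, Pgam1, Slc16a1 and Ldhb; 7.2% of all genes). Between E10.5 and E11.5 none did by limma, where 0.0259% of all genes passed, and 3 of the 29 had an unadjusted p under 0.05. In head 1 gene passed in each interval: Slc2a3 in the first (0.958% of all genes) and Slc2a1 in the second (0.984%). Whether the first day's change exceeded the second's was not tested. In all, 12 of the 29 genes had E9.5 arrays that did not overlap those of E11.5 (4 against 4), as did 15.9% of all genes. By the F test over the 6 groups, 15 of the 29 genes differed, 11 of 18 glycolysis and 4 of 11 hypoxia genes, against 18% of all genes.

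Single arrays decided some of these calls. In the average of the tissues 12 of the 15 calls held without any 1 array. Hk2 lost its call without head E9.5 replicate 1, head E11.5 replicate 2 or any 1 of the 4 trunk arrays of those stages. Aldoa lost it without head E9.5 replicate 2, head E11.5 replicate 2 or replicate 1 of trunk E9.5 or E11.5. Bnip3 lost it without replicate 2 of head E9.5 or E11.5 or any 1 of those 4 trunk arrays. In head, Slc2a3 kept its call over the whole span without any 1 array, and the other 5 lost theirs without at least 1 head array of E9.5 or E11.5 (P4ha1 also without either trunk array of E10.5). In trunk, Slc2a3, Pgam1, Ldhb and Slc16a1 kept theirs. The trunk count of 11 fell to 5 without trunk E9.5 replicate 1 and to 6 without trunk E11.5 replicate 2. The head count of 6 fell to 2 without either head array of E9.5 or head E11.5 replicate 2, and to 3 without head E11.5 replicate 1. The first-day trunk count of 6 fell to 1 without replicate 1 of trunk E9.5 or of trunk E10.5. Slc2a3 lost its first-day head call without head E10.5 replicate 1. Without each of 4 arrays (head E9.5 replicate 2, head E10.5 replicate 2 and either head array of E11.5) 2 genes were called there. Slc2a1 lost its second-day head call without head E10.5 replicate 1, head E11.5 replicate 2 or either trunk array of E10.5. The F test count of 15 fell to 9 without trunk E9.5 replicate 1.

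Between head and trunk 4 of the 29 genes (13.8%) differed over the mean of the 3 stages, a share near the 10.5% of all genes. Of the 4, 1 was higher in head and 3 were lower, against 6.85% higher and 3.61% lower over all genes. The signs were balanced, with 15 of 29 differences below 0 against 50.1% of all genes. For none of the 29 did the 6 head arrays lie wholly above or below the 6 trunk arrays, as 2.85% of all genes did. Egln3 was higher in head by 0.57 ± 0.12 (adjusted p = 0.00935); at E11.5 the head arrays exceeded the trunk arrays 2.08-fold (1.06 ± 0.21, adjusted p = 0.0247). At E9.5 and E10.5 its difference was 0.31 ± 0.21 and 0.36 ± 0.21 (adjusted p = 0.542 and 0.317).

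Both Egln1 and P4ha1 were lower in head. Egln1 read 10.67 and 10.58, 10.09 and 10.22, and 10.41 and 10.82 in head over the 3 stages, and 10.85 and 10.95, 10.82 and 11.03, and 11.02 and 10.73 in trunk. The head arrays dipped at E10.5, where the difference was -0.77 ± 0.18 (adjusted p = 0.0332), and over the mean of the stages it was -0.44 ± 0.10 (adjusted p = 0.0171). The second probe set of Egln1 was also lower in head, at -0.81, but with the mean of both the differences did not pass (adjusted p = 0.132 over the stages). P4ha1 read 7.91 and 8.13 in head and 8.60 and 8.59 in trunk at E10.5, and its difference over the mean of the stages was -0.48 ± 0.12 (adjusted p = 0.0252). Eno3 was lower in head by 0.46 ± 0.14 (adjusted p = 0.0491), from 9.26 and 9.67 against 9.999 and 10.04 at E9.5 and 9.49 and 9.56 against 10.01 and 10.28 at E10.5. At E11.5 its arrays overlapped, at 9.36 and 8.95 in head and 9.65 and 9.09 in trunk.

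At single stages 1 gene differed at E9.5 (Ldhb, 5.92% of all genes), 2 at E10.5 (Slc2a1 and Egln1, 4.52%) and 1 at E11.5 (Egln3, 2.07%). These shares are near those of all genes. The Egln3 difference over the mean of the stages held without any 1 array, whereas its difference at E11.5 was lost without any 1 of the 4 arrays of that stage. Egln1 lost its difference over the stages without trunk E10.5 replicate 2 or trunk E11.5 replicate 1, and that at E10.5 without any 1 of the 4 arrays of E10.5. The P4ha1 difference was lost without any 1 of 7 arrays (replicate 2 of head E9.5 and of trunk E9.5, replicate 1 of head E10.5, head E11.5 and trunk E11.5, and both trunk arrays of E10.5). Eno3 kept its difference without 3 of the 12 arrays (head E9.5 replicate 2, head E11.5 replicate 1 and trunk E11.5 replicate 2) and lost it without any 1 of the other 9, and also without the trend, with either other filter, with the replicate block (adjusted p = 0.0666), without the probe sets of the suffixes _s, _x and _a (adjusted p = 0.0501) and without replicate 1 of E10.5 in both tissues (adjusted p = 0.159). The count of 4 genes fell to 2 without replicate 1 of head or of trunk E10.5, and to 1 without trunk E10.5 replicate 2 or trunk E11.5 replicate 1.

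**Figure D5:**
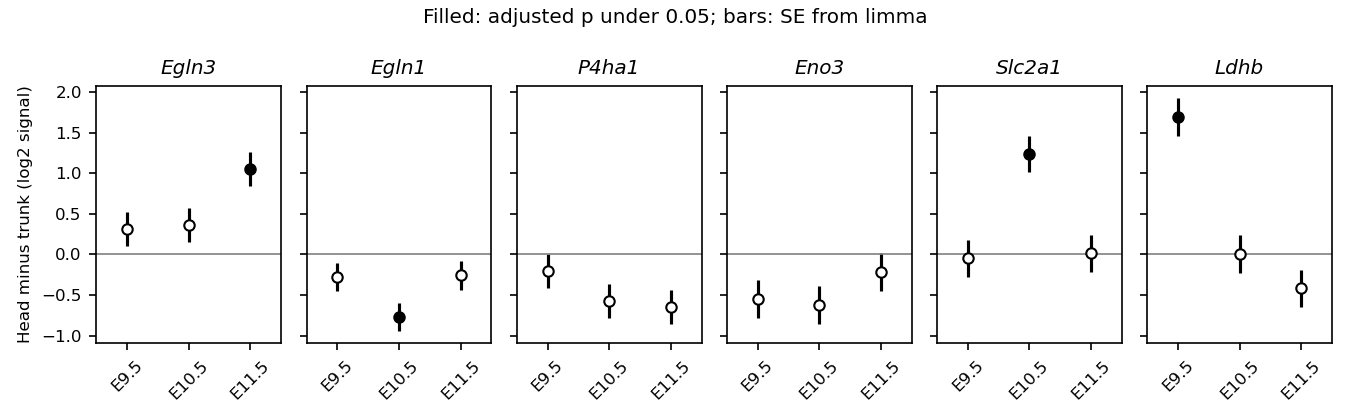
Head minus trunk (log2 signal, bars are the SE from limma) at E9.5, E10.5 and E11.5 for 6 genes, filled where the adjusted p is under 0.05. Ldhb is filled at E9.5 (1.70), Slc2a1 at E10.5 (1.24), Egln1 at E10.5 (-0.77) and Egln3 at E11.5 (1.06).

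Whether head and trunk differed in the change from one stage to another was tested for each interval. For E9.5 to E11.5 it passed for Ldhb alone among the 29 genes. For the single days, which were added after the data were seen, 0 of the 29 passed in limma, while 0.388% of all genes did over the first day and 0% over the second. At an unadjusted p under 0.05 there were 4 and 3 of the 29. Without trunk E9.5 replicate 2 the first-day count was 2, and without head E9.5 replicate 1 it was 1.

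Neighbouring pathways gave a wider view, from lists of further genes written for this comparison. Of 7 other glycolysis isozymes and regulators tested, 0 rose and 1 fell from E9.5 to E11.5 in the average of the tissues: Gpd2, the mitochondrial glycerol phosphate dehydrogenase (-0.88 ± 0.15, adjusted p = 0.00212). In the pentose phosphate pathway, which draws on glucose for nucleotides, 2 of 8 fell, Prps2 (-1.32 ± 0.23, adjusted p = 0.00213) and Tkt, transketolase (-0.39 ± 0.10, adjusted p = 0.0167). Of 8 genes of pyruvate entry into mitochondria 1 rose, Mpc1, a subunit of the pyruvate carrier (1.10 ± 0.26, adjusted p = 0.012). The medians of these 3 lists were 0.02, -0.19 and 0.06, and the shares called were 14.3%, 25% and 12.5%, with 16.2% over all genes. The other oxygen sensing genes included 1 that rose and 1 that fell of 7 (28.6%): Hif3a, an alpha subunit that can dampen the response (1.22 ± 0.22, adjusted p = 0.00257), and Cited2, a competitor of the factor for its coactivator (-0.81 ± 0.13, adjusted p = 0.00108).

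Further targets of the factor went both ways, as the hypoxia genes of the main list did. Of 24 tested, 3 rose and 6 fell (37.5%), with a median of -0.16. Lox, the collagen cross-linking enzyme, rose by 2.34 ± 0.29 (adjusted p = 0.000196) and Angptl4, a lipase inhibitor, by 1.28 ± 0.17 (adjusted p = 0.000303). Ak4, a mitochondrial adenylate kinase, fell by 1.14 ± 0.15 on the log2 scale (adjusted p = 0.000358), and Nampt, of NAD synthesis, fell by 0.82 ± 0.15 (adjusted p = 0.00238). Between head and trunk 2 of the 24 were higher in head and 2 lower. They were Flt1, a receptor of Vegfa (1.54 ± 0.18, adjusted p = 0.000168), Pygl, glycogen phosphorylase of liver (0.66 ± 0.14, adjusted p = 0.0114), Plod1, a collagen lysyl hydroxylase (-1.01 ± 0.19, adjusted p = 0.00421), and P4hb (-0.24 ± 0.06, adjusted p = 0.0184). Pdk3, a relative of Pdk1, was lower in head by 0.41 ± 0.12 (adjusted p = 0.0484). The change of Stc2, stanniocalcin 2, differed between the tissues by 2.45 ± 0.47 (adjusted p = 0.0258).

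Marker genes of several cell types changed over the same stages. From E9.5 to E11.5, 21 of 22 tested genes of muscle differentiation rose, with a median of 3.44, and the summed signal of the list went from 2580 to 2959 in head at E9.5 to 18178 to 24003 at E11.5. In trunk it went from 1425 to 3872 at E9.5, over 13963 to 14256 at E10.5, to 18134 to 25589 at E11.5, while head at E10.5 was still at 4032 to 5015. Of the markers of other cells, 9 of 10 epithelial genes fell (median -1.66). Neuronal genes rose in 10 of 15 cases (median 1.28), genes of connective tissue in 6 of 10 (0.87) and genes of macrophages and leukocytes in 4 of 5 (1.001), while 1 of 6 erythroid genes fell and 0 of 12 endothelial genes passed. The summed erythroid signal, over 10 genes with a probe set, was 22066 to 25890 in head and 13295 to 15003 in trunk at E9.5. At E11.5 it was 8649 to 19241 in head and 11869 to 17099 in trunk. The neuronal and connective tissue rises lay mostly in trunk: 11 of 15 and 7 of 10 were higher there, against 1 and 0 in head, where 1 gene of each list was lower. The median difference between the tissues in these changes was -1.62 and -1.80, and it passed for 3 of 15 and 5 of 10 genes. Comparing head with trunk, averaged over stages, 12 of 12 endothelial genes (median 1.52), 12 of 15 neuronal (1 was lower), 8 of 10 epithelial and 4 of 5 macrophage genes were higher in head, as was 1 of 6 erythroid genes. Lower in head were 9 of 22 muscle genes and 4 of 10 genes of connective tissue, of which 1 was higher. The summed endothelial signal was 2285 to 5804 on the head arrays and 899 to 1737 on the trunk arrays, with Pecam1 and Erg below the median on all 12; Flt1 itself stands in that list. The trunk arrays of E9.5, where the glycolysis genes stood highest and Ldhb lowest, also stood apart on the first principal component of all genes, at -50.1 and -43.9 against -8.89 to 26.9 on the other 10. The part of these other cells, and of the degree of differentiation, in the results on the glycolysis and hypoxia genes was not tested.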

How the data were processed

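The 12 arrays measured biotin-labelled cRNA of sorted cells, per the labels' protocols. The deposited values are probe set signals on a linear intensity scale, made by the authors with MAS5 and Affymetrix Expression Console per the submitters' processing notes, with no version named; the sources used here do not give any later normalization. Log2 was taken of the deposited intensity, with no other normalization. Of 22690 probe sets, 64 were controls (those of Gapdh were kept for that gene), 20383 belonged to 1 gene and were used, 691 to several and 1555 to none. Where several probe sets named a gene, the one with the highest mean was kept, and the filter stated in the report left 7723 genes; MAS5 detection calls were not used here.

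limma 3.58.1 in R 4.3.3 was fitted with 1 mean for each of the 6 groups, a variance trend on intensity (residual degrees of freedom 6, prior 5.87), for 12 planned and 2 added comparisons and an F test; the fit was tested on simulated data. Tests were two-sided, and p-values were adjusted over all genes by the Benjamini-Hochberg method. The number of arrays limits the precision. No batch is named in the labels. Same-numbered replicates deviated together little over all genes (correlations of -0.30 to 0.17 over 15 pairs of groups, 2 above 0.1), and they were not treated as pairs. Most of these pairs of groups are of different stages. For head and trunk of the same stage the correlations were 0.0057 at E9.5, -0.0005 at E10.5 and -0.0956 at E11.5. At E10.5, however, replicate 1 had a low Xist signal in both tissues. With 2 arrays a group these values cannot settle whether same-stage replicates share embryos. The members and lists, and the alternative without the arrays of low Xist signal, were chosen with earlier results of these data known. All 35 members could be named; of the other lists, up to 4 genes of smallest p that passed in a comparison; the lineage genes Myf5, Myod1, Tbx1 and Pax3 were added after the data were seen. Promoter windows came from RefSeq (GRCm38.p6) by symbol. Protein sequences were not used here. Alternatives were quantile normalization, median centring, an added 16 before log2, no filter, a filter on all 12 arrays, the mean of probe sets, no probe sets with the suffixes _s, _x or _a, no trend, a replicate block, leaving out each array, and leaving out replicate 1 of E10.5 in both tissues.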

Additional observations from a re-analysis of the deposited data

Results flagged for a closer look

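The change of Ldhb, lactate dehydrogenase B, from E9.5 to E11.5 differed between head and trunk by -2.12 (log2) in the test of that difference by limma (adjusted p = 0.00813), with a rise of 2.53 in trunk and a change of 0.41 in head. Both trunk arrays of E9.5 lay below the 10 others. It held without any 1 array, with an adjusted p of at most 0.0399 over all alternatives that could test it, and could not be tested without probe sets of the suffixes _s, _x and _a, since Ldhb has no other. The same 2 arrays stood apart over all genes, and the part of that in the Ldhb result was not tested.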

How the results depend on the processing

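Of 49 calls on single genes, 21 kept their side of the threshold and their direction under all alternatives that could test them, and 0 reversed direction; of 1056 values under 22 alternatives, 918 kept their side and 138 lost it. Without replicate 1 of E10.5 in both tissues the genes called numbered 1 for head against trunk over the stages, 0 for head against trunk at E10.5, 0 for each single day in head, 1 for the first day in trunk and 7 by the F test. Without probe sets of the suffixes _s, _x and _a, which left 20 of the 29 genes, they numbered 0 for head against trunk at E9.5, 0 for each day in head and 3 for its whole span, 3 for the first day in trunk and 5 for its whole span, 9 for the average of tissues and 0 for the difference between the changes. With the mean of probe sets there was 1 for head against trunk at E10.5 and 0 for the second day in head; without the trend these were 1 and 0 too, and 9 by the F test.

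Without 1 array at a time the counts ranged as follows: head against trunk 1 to 5 over the stages, 1 at E9.5, 0 to 2 at E10.5 and 0 to 1 at E11.5; head 0 to 2 and 0 to 1 for the single days and 2 to 7 for the whole span; trunk 1 to 8 and 0 for the days and 5 to 13 for the span; 12 to 16 for the average of tissues, 1 for the difference over the whole span, 0 to 2 and 0 for the single days, and 9 to 14 by the F test. There the lone array of a group was assumed to vary like the others. With the replicate number as a block the counts were 15 for the average of tissues, 6 for head and 12 for trunk. They were 3 for head against trunk and 11 by the F test. This block joins all arrays of the same number, so it cannot show whether arrays of the same stage share embryos. The cause of the other changes was not tested. With 2 arrays a group, small differences between head and trunk cannot be settled, and probe sets of low signal give only weak limits.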
